A study of Homo sapiens with 12 samples.

Results

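The RIG-I-like receptors and the OAS family are among the sensors with which a cell detects double-stranded RNA in its cytoplasm. Their transcripts were followed here in 2 triple-negative breast cancer cell lines with and without depletion of PACT. The set holds 9 genes, taken by gene name from the 57500 genes of the count table: the RIG-I-like receptors DDX58 (the protein RIG-I), IFIH1 (MDA5) and DHX58 (LGP2), their adaptor MAVS, the endosomal receptor TLR3, and the family members OAS1, OAS2, OAS3 and OASL. All 9 were found and all 9 passed the filter on low counts.

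HCC1806 and MDA-MB-468 are established lines of triple-negative breast cancer, a class defined by missing hormone receptors and no excess of HER2. PACT is the product of PRKRA; it binds double-stranded RNA and can regulate the kinase PKR, encoded by EIF2AK2. The 12 libraries fell into 4 groups of 3: HCC1806 with the control guide sgC1, HCC1806 with the guide sgPACT-2, MDA-MB-468 with the control guide sgNTA, and MDA-MB-468 with sgPACT-2. All were CRISPR guides, and no drug, interferon or RNA ligand is named in the labels of any group. Each line had its own control guide, so a difference between the control groups cannot be told apart from a difference between guides. Whether the guide-treated cells were pools or clones, and whether replicates were separate cultures, is not given in the sources used here; if they were not, the p-values measure a technical spread only.

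RIG-I and MDA5 bind double-stranded RNA through a helicase domain and signal through caspase recruitment domains to MAVS on the mitochondrial surface. MAVS then recruits the kinases TBK1 and IKBKE, which activate the transcription factors IRF3 and IRF7 and with them the interferon genes. LGP2 has the helicase but lacks the recruitment domains and modulates the other receptors, while TLR3 senses double-stranded RNA inside endosomes and signals through TICAM1. OAS1, OAS2 and OAS3 are enzymes that, once bound to double-stranded RNA, make short oligoadenylates that activate a latent RNA-cutting enzyme. OASL is related in sequence, lacks that enzymatic activity and enhances RIG-I signalling. Most of these genes are themselves induced by interferon, through an interferon-stimulated response element (ISRE) in the promoter.

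The sequence before the start of the gene is shown for DDX58, the called member in the promoter table, and for IFIH1 and OAS3, the members with more than 1 exact match to the ISRE core. These 3 were picked with the outcome known, and no contrast between called and uncalled members is drawn from them: OAS1, which was not called, has the same GAAA repeat as DDX58 and no ISRE core, and OASL had no entry used. Each is the 250 bases before the start in RefSeq (GRCh38.p14), 5′ to 3′ on the strand of the gene. Capitals mark a match, on either strand, to GAAANNGAAA (the ISRE core), to GAAANGAAA (the same repeat with a spacer shorter by 1 base) or to the kappaB motif bound by NF-kappaB. DDX58 lies at chr9:32526197-32526446 (minus strand), IFIH1 at chr2:162318685-162318934 (minus strand) and OAS3 at chr12:112938224-112938473 (plus strand).
DDX58: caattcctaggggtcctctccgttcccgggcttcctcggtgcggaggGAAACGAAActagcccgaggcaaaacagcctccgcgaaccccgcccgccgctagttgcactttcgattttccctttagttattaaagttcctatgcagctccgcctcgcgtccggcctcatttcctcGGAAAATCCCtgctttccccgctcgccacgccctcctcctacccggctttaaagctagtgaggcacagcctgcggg
IFIH1: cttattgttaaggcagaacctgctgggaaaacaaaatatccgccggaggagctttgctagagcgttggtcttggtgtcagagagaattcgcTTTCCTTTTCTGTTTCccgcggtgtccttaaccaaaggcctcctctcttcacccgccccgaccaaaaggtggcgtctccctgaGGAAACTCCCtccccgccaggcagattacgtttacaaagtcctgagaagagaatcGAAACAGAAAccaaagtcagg
OAS3: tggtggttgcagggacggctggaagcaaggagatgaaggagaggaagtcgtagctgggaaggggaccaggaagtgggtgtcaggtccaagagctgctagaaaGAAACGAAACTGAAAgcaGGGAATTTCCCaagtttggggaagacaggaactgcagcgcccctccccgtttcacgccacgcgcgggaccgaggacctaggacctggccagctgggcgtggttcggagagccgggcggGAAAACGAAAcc

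The 250 bases shown for DDX58 held no GAAANNGAAA, but a GAAANGAAA at positions -203 to -195 from the start and a kappaB match at -76 to -67 on the opposite strand. IFIH1 held 3 matches to GAAANNGAAA, of which a pair at -159 to -150 and -153 to -144 overlapped each other on the opposite strand and the third lay at -21 to -12. It also had a kappaB match at -76 to -67 on the opposite strand, the same distance from its RefSeq start as in DDX58. All distances here hold for the RefSeq starts only. The gene coordinates given below are from GENCODE 29, whose starts lie inside the bases shown. They are 32526324 for DDX58, 162318703 for IFIH1 and 112938352 for OAS3. OAS3 held GAAANNGAAA at -143 to -134 and at -12 to -3, the former overlapping a GAAANGAAA at -148 to -140, and a kappaB match read on both strands at -130 to -121 and -129 to -120. Of the 9 genes, 6 were in the promoter table. In windows of 300 bases (250 before the start and 50 after), TLR3 held 1 GAAANNGAAA across its start (-4 to 6, opposite strand), OAS1 held 1 GAAANGAAA (-17 to -9), and MAVS held none of the motifs. Over all 35116 windows of that length in the table, 3.57% held GAAANNGAAA, 3.12% held GAAANGAAA and 11.3% held the kappaB motif. The form GAAANGAAA was added after the DDX58 sequence had been read. A match is a stretch of letters and not a measured binding site.

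**Figure D1:**
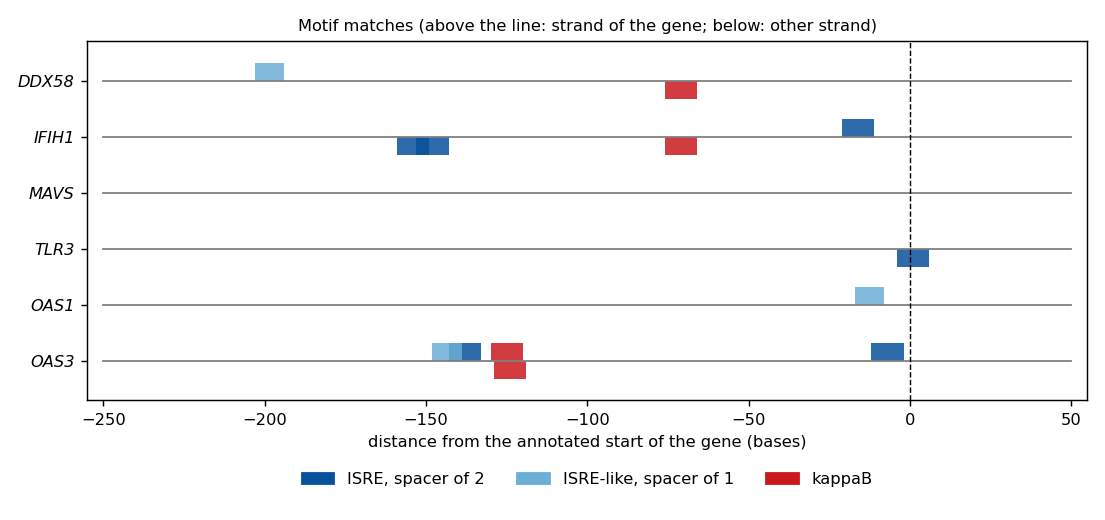
Motif matches in the promoter windows of the 6 genes in the RefSeq table, against distance from the RefSeq start in bases. Boxes above a line are on the strand of the gene, boxes below on the other strand. Of the GAAA repeats, DDX58 has only the form with the short spacer, IFIH1 and OAS3 have 3 and 2 matches to the ISRE core, and MAVS has no match.

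Total counts ran from 18640633 to 24704877 reads in the HCC1806 libraries and from 34581754 to 44790741 in the MDA-MB-468 libraries. The targeted gene checked the labels in HCC1806: PRKRA stood at 77.8 ± 5.30 CPM (counts scaled to library size by TMM; mean ± SD, n = 3) with sgC1 and at 36.9 ± 0.774 with sgPACT-2, a log2 fold change of -1.07 (SE 0.102, edgeR adjusted p = 1.7e-05). In MDA-MB-468 PRKRA was 44.7 ± 3.12 with sgNTA and 38.8 ± 3.09 with sgPACT-2, ranges that overlapped (log2 fold change -0.20, SE 0.101, edgeR adjusted p = 0.958). A transcript that is cut and repaired can persist, so the RNA level does not give the amount of protein, and every MDA-MB-468 result below concerns the libraries labelled sgPACT-2. All 10 epithelial markers had reads in both lines, but in the MDA-MB-468 controls TP63 stood at only 0.62 ± 0.213 CPM and KRT6A at 3.65 ± 0.465. The markers summed to 12200 to 14000 CPM in the MDA-MB-468 libraries. EGFR alone made up most of this, at 8270 ± 196 CPM in the controls. In HCC1806 the sum was 3510 to 3900 CPM in the controls and lower, 2670 to 3120 CPM, in the depleted libraries, and the part of this in the results below was not tested. The receptor genes that define the triple-negative class were not all silent. In the HCC1806 and MDA-MB-468 controls ESR1 stood at 20.9 ± 1.81 and 6.67 ± 0.41 CPM. ERBB2, encoding HER2, stood at 194 ± 14.2 and 140 ± 5.02 CPM, and PGR at 0.0573 and 0.0101 CPM. Here too the RNA level does not give the amount of protein. Of the immune markers, the defining PTPRC stayed at or under 0.585 CPM in every library and CD3E at or under 0.025. CD14 alone made up most of the immune sum in MDA-MB-468, at 98.7 ± 8.87 CPM in the controls. The fibroblast markers summed to 30.5 to 52.9 CPM in the HCC1806 libraries and 17.3 to 21.8 CPM in those of MDA-MB-468, most of it COL1A1.

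In HCC1806, 2 of the 9 genes rose after PACT depletion, DDX58 and OASL, and none fell. The other 7 were not called, and the ranges of their depleted and control libraries overlapped. The 2 of 9 stand beside 2.49% of all 27029 genes tested that were called in this comparison and 1.16% that were called higher. With the replicate number as a block the count over all genes went from 672 to 1947, and the members called were again DDX58 and OASL. No overlap between 3 depleted and 3 control libraries was found for 16.7% of all genes. The median log2 fold change over the 9 genes was -0.00357, beside 0.00777 over all genes tested.

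DDX58 (ENSG00000107201) is a protein-coding gene on the minus strand at chr9:32455705-32526324 and encodes RIG-I, the receptor for short double-stranded RNA with a 5′ triphosphate. It measured 18.8, 17.3 and 16.7 CPM in the sgC1 libraries of HCC1806 and 31.9, 26.9 and 31.5 CPM in the sgPACT-2 libraries. In bulk RNA a higher level in all cells and in some of the cells cannot be told apart. Every depleted library lay above every control, and the lowest depleted value exceeded the highest control by more than the range within either group. The log2 fold change was 0.77 (SE 0.128, 95% interval 0.50 to 1.04), a 1.71-fold rise with an edgeR adjusted p of 0.00408. Raw counts were 387 to 451 per control library and 620 to 943 per depleted library.

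OASL (ENSG00000135114), at chr12:121019111-121039242 on the minus strand, lies apart from the OAS1-OAS3-OAS2 cluster of the same chromosome. It measured 1.38, 1.03 and 1.44 CPM with sgC1 and 5.78, 4.68 and 6.21 CPM with sgPACT-2. Here too the groups did not overlap, although the control libraries held only 23 to 34 reads each and the depleted ones 108 to 186. The log2 fold change was 2.11 (SE 0.354, 95% interval 1.37 to 2.86), or 4.32-fold, with an edgeR adjusted p of 0.00419. Both calls were kept with HCC1806 fitted alone, at edgeR adjusted p = 0.0367 for DDX58 and 0.00636 for OASL, and whichever of the 12 libraries was left out.

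IFIH1 encodes MDA5, the receptor for long double-stranded RNA, and measured 15.2, 16.2 and 13.2 CPM in the HCC1806 controls and 13.9, 17.7 and 20.5 CPM after depletion. Its log2 fold change of 0.23 (95% interval -0.063 to 0.525, edgeR adjusted p = 0.504) allows no change and also a rise about as large as the lower bound for DDX58. DHX58, encoding LGP2, stood at 9.05, 11.6 and 9.06 CPM in the controls and at 7.35, 13.9 and 12.9 CPM after depletion, with 1 depleted library below all controls and the other two above them. MAVS was far more abundant, with 147, 167 and 166 CPM in the controls and 139, 146 and 157 CPM after depletion. The groups overlapped for all 3 genes. The interval for MAVS was among the narrowest of the set, from -0.314 to 0.0763 on the log2 scale.

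TLR3, the endosomal receptor, measured 16.3, 24.3 and 22.4 CPM with sgC1 and 12.1, 17.2 and 24.8 CPM with sgPACT-2, and the spread within each group exceeded the difference between their means. OAS1 ran from 17.4 to 26.9 CPM in the controls and from 13.6 to 29 CPM after depletion, and OAS2 from 35.9 to 44.0 and from 31.1 to 46.1 CPM. OAS3, the largest enzyme of the family, ran from 161 to 192 CPM in the controls and from 156 to 187 CPM after depletion. None of the 3 enzymes was called, unlike OASL: their log2 fold changes were -0.07 (95% interval -0.514 to 0.37), -0.0036 (-0.309 to 0.302) and -0.0067 (-0.278 to 0.264). Those near-zero values have no stable sign, and the intervals leave out a change of the size seen for DDX58.

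One HCC1806 library recurred at the edge of these ranges. Replicate 1 of sgPACT-2 was the lowest of the 3 depleted libraries for IFIH1, DHX58, MAVS, TLR3, OAS1 and OAS2, and the highest for DDX58 and OAS3. Replicate 3 was the highest for 6 of the 9 genes and the lowest for 0. Without replicate 1 the log2 fold changes were 0.36 for IFIH1, 0.43 for DHX58 and 0.17 for OAS1, still not called. DDX58 was then 0.73 and OASL 2.08, both still called.

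**Figure D2:**
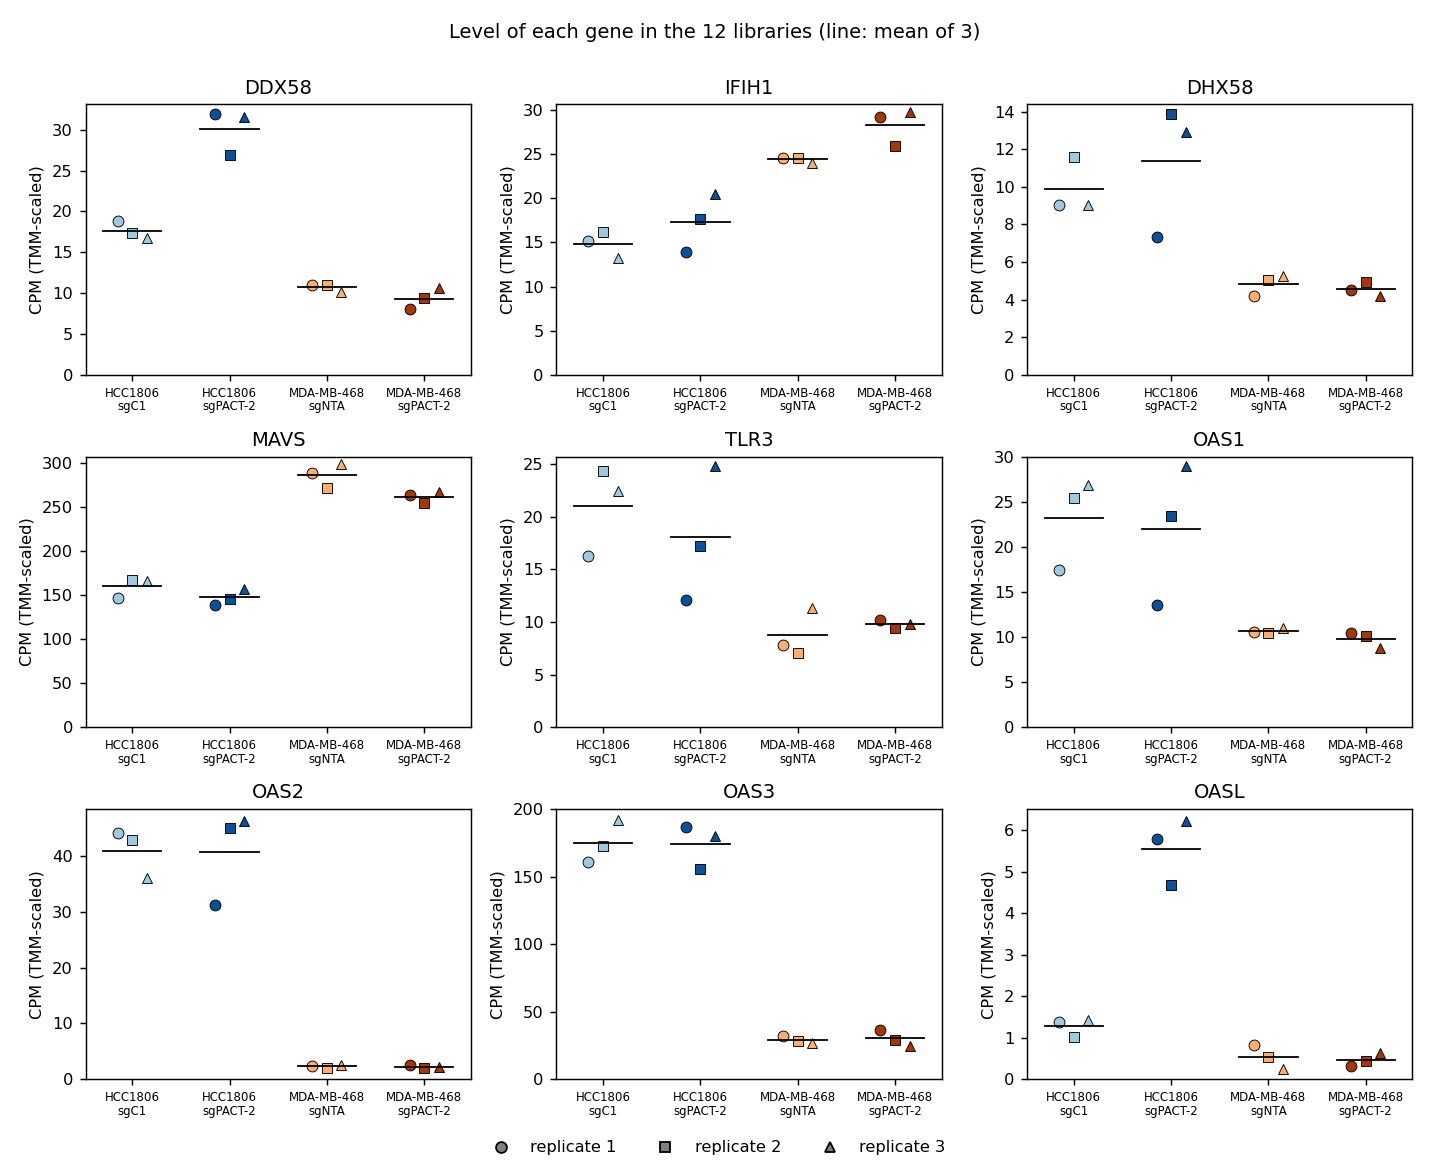
TMM-scaled CPM of the 9 genes in each of the 12 libraries; each panel is 1 gene with its own axis from 0, marker shapes give the replicate number and lines the mean of 3. In HCC1806 the depleted libraries lie clear above the controls for DDX58 and OASL, while the other panels overlap, and replicate 1 (circles) is often the lowest depleted library.

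In MDA-MB-468, 0 of the 9 genes were called with edgeR, beside 0.17% of all genes tested, and 0 had an unadjusted p under 0.05. DESeq2 also called 0. The smallest unadjusted p was 0.131, for IFIH1. DDX58 measured 11.0, 11.0 and 10.2 CPM with sgNTA and 8.07, 9.35 and 10.6 CPM with sgPACT-2, so that the groups overlapped and the depleted mean was the lower one (log2 fold change -0.20, 95% interval -0.473 to 0.0788). That interval lies below the whole of the HCC1806 interval for the same gene. OASL measured 0.836, 0.548 and 0.250 CPM in the controls and 0.314, 0.451 and 0.646 CPM after depletion, on 10 to 30 reads per library. At this depth its interval was wide, from -1.07 to 0.668 on the log2 scale.

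The control and depleted libraries of MDA-MB-468 did not overlap for 2 of the 9 genes, beside 13.1% of all genes tested. IFIH1 was 24.6, 24.6 and 24.0 CPM in the controls and 29.2, 25.9 and 29.8 CPM after depletion. MAVS was 288, 272 and 299 CPM in the controls and 264, 254 and 267 CPM after depletion. Neither difference passed the adjusted threshold (log2 fold changes 0.21 and -0.13, both with an edgeR adjusted p of 1). The remaining genes overlapped between groups: DHX58 at 4.21 to 5.24 CPM, TLR3 at 7.09 to 11.3 CPM, OAS1 at 8.83 to 11.0 CPM, OAS2 at 2.07 to 2.57 CPM and OAS3 at 25.1 to 36.8 CPM over all 6 libraries.

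The difference between the 2 depletion effects was tested in the same model as an interaction, MDA-MB-468 minus HCC1806. It passed for 1 of the 9 genes, DDX58, beside 0.122% of all genes tested. The DDX58 difference was -0.97 on the log2 scale (SE 0.183, edgeR adjusted p = 0.0489). This call sat at the threshold: it passed in 1 of the 12 fits that left out a library, the one without replicate 1 of sgPACT-2 in HCC1806, and the adjusted p ran from 0.0312 to 0.166 over these fits. With RLE size factors it was 0.0569, and with DESeq2 it was 6.0e-04. For OASL the difference was larger, -2.31, but less precise (SE 0.543, 95% interval -3.46 to -1.17, edgeR adjusted p = 0.143). It passed with DESeq2 (adjusted p = 0.00924) and with no filter on low counts in edgeR (adjusted p = 0.00863). For the other 7 genes the difference was not called, with edgeR adjusted p values of 0.811 and above.

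**Figure D3:**
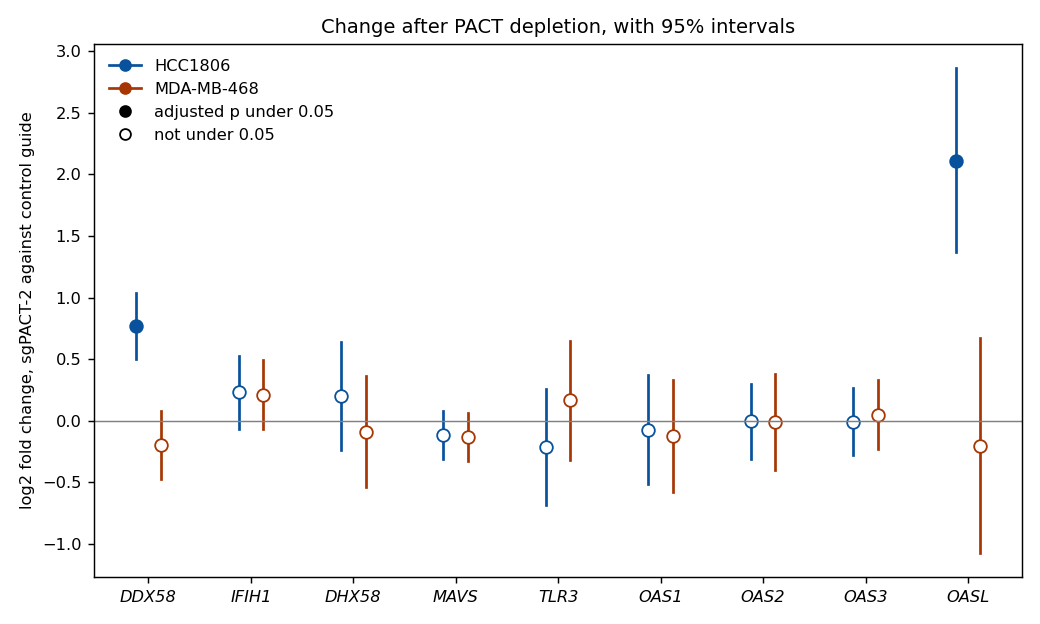
Log2 fold change of each gene, sgPACT-2 against the control guide, in HCC1806 (blue) and MDA-MB-468 (brown) with 95% intervals from the edgeR model; filled points have an adjusted p under 0.05. Only DDX58 and OASL in HCC1806 are filled, at 0.77 and 2.11, and the intervals of the 2 lines overlap for the 7 other genes.

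The lines differed in these genes before any depletion. Between the control groups all 9 genes differed, beside 74.2% of all genes tested, and the control libraries did not overlap for any of the 9, beside 77.7%. So a difference as such was the rule in this contrast. By direction, 7 were higher in HCC1806, where 40.1% of all genes were, and 2, MAVS and IFIH1, were higher in MDA-MB-468. OAS2 had the largest difference, 35.9 to 44.0 CPM in HCC1806 and 2.07 to 2.57 CPM in MDA-MB-468, a 17.5-fold gap (log2 -4.13, SE 0.174, edgeR adjusted p = 9.0e-13). OAS3 followed at 5.94-fold, with 161 to 192 CPM against 27.3 to 32.5 CPM. TLR3, OASL, OAS1 and DHX58 were 2.40-, 2.37-, 2.18- and 2.05-fold higher in HCC1806, and DDX58 1.65-fold. MAVS was 1.79-fold and IFIH1 1.64-fold higher in MDA-MB-468. With the replicate number as a block, the call for OASL was lost (log2 -1.16, edgeR adjusted p = 0.0627), and the other 8 were kept in every alternative run. The median of all genes in this contrast was -0.262 on the log2 scale, and scaling by library size alone shifted it by -0.249.

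Per kilobase of exon, which allows genes to be ordered, OAS3 was the most abundant in the HCC1806 controls at 21.2 ± 1.95 CPM per kb, followed by MAVS at 13.6 ± 0.962 and OAS2 at 6.52 ± 0.699. OAS1 (4.70 ± 1.03) and DDX58 (4.05 ± 0.245) overlapped, as did TLR3 (3.12 ± 0.618), IFIH1 (2.91 ± 0.294) and DHX58 (2.58 ± 0.381), each with its neighbour in this order. OASL came last at 0.364 ± 0.0628. After depletion DDX58 stood at 6.91 ± 0.641 CPM per kb, overlapping OAS2 at 6.5 ± 1.33, and moved from rank 5 to rank 3, or from rank 6 to rank 5 with the longest transcript as the length. OASL was still last at 1.58 ± 0.224, without overlap with TLR3 above it (2.68 ± 0.955).

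In the MDA-MB-468 controls the order was led by MAVS at 24.3 ± 1.15 CPM per kb, with IFIH1 second at 4.78 ± 0.0693 and OAS3 in the place after it at 3.57 ± 0.322. DDX58 (2.46 ± 0.0952) and OAS1 (2.15 ± 0.0564) came next without overlap, then TLR3 (1.30 ± 0.336) and DHX58 (1.26 ± 0.143), which overlapped. OAS2 (0.371 ± 0.0401) and OASL (0.155 ± 0.0834) were lowest. The order depends in part on the length used. With the longest transcript in place of all exons, OAS1 rose to 9.62 CPM per kb in the HCC1806 controls and passed OAS2 (8.63), and IFIH1 (4.13) passed DDX58 (4.05) and TLR3 (3.49). In the MDA-MB-468 controls OAS1 (4.41) then stood level with OAS3 (4.39).

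**Figure D4:**
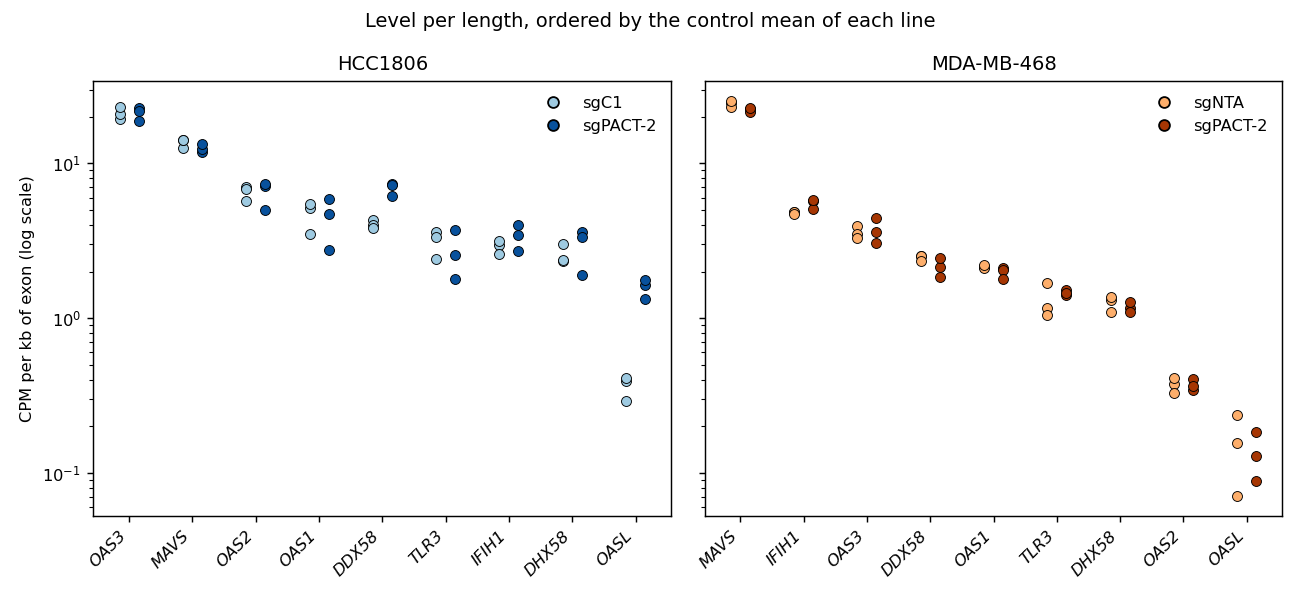
CPM per kb of exon for the 9 genes in each library, on a log axis, ordered in each panel by the mean of the control group of that line; light points are control and dark points sgPACT-2 libraries. OAS3 leads in HCC1806 (21.2) and MAVS in MDA-MB-468 (24.3), and OASL is last in both.

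The balance of the 2 signalling receptors also differed between the lines. The ratio of DDX58 to IFIH1 per kb was 1.45, 1.26 and 1.49 in the HCC1806 controls and 2.69, 1.78 and 1.80 after depletion. In MDA-MB-468 it was 0.522, 0.522 and 0.5 in the controls and 0.325, 0.423 and 0.418 after depletion. Where the ratio stands against 1 depends on the length used. With the longest transcript it was 1.02, 0.885 and 1.05 in the HCC1806 controls, on both sides of 1, and 1.25 to 1.89 after depletion, while all 6 MDA-MB-468 libraries had 0.228 to 0.368. The change within a line does not depend on the length: in each line the 3 depleted libraries lay outside the control range, upward in HCC1806 and downward in MDA-MB-468. An exact permutation test gave p = 0.1 in each line, two-sided, the smallest value 3 against 3 libraries can give.

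The 4 OAS family transcripts summed to 32.8 ± 2.26 CPM per kb in the HCC1806 controls and 33.7 ± 2.73 after depletion, so the sum moved by less than its spread. Within it the share of OASL was 1.29%, 0.883% and 1.17% in the controls and 5.13%, 4.14% and 4.79% after depletion, 2 ranges far apart (exact permutation p = 0.1, the smallest possible). With the sum nearly unchanged, this share restates the called rise of OASL and is no separate result. In MDA-MB-468 the sum was 6.26 ± 0.379 and 6.18 ± 0.846 CPM per kb, and the OASL share 2.43 ± 1.19% and 2.26 ± 1.08%. The lines also differed in the enzymes themselves. OAS2 made up 20 ± 3.38% of the sum in the HCC1806 controls and 5.95 ± 0.763% in those of MDA-MB-468, and OAS1 made up 14.2 ± 2.27% and 34.5 ± 2.40%. OAS3 made up 64.7 ± 1.95% and 57.1 ± 1.85%. These shares too depend on the length: with the longest transcript OAS3 and OAS1 had 46.3 ± 2.17% and 46.7 ± 2.57% in the MDA-MB-468 controls, ranges that overlapped, and OAS3 had 58.3 ± 1.76% in those of HCC1806. The OASL share in HCC1806 was then 0.692% to 1.03% in the controls and 3.27% to 4.23% after depletion, again without overlap.

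**Figure D5:**
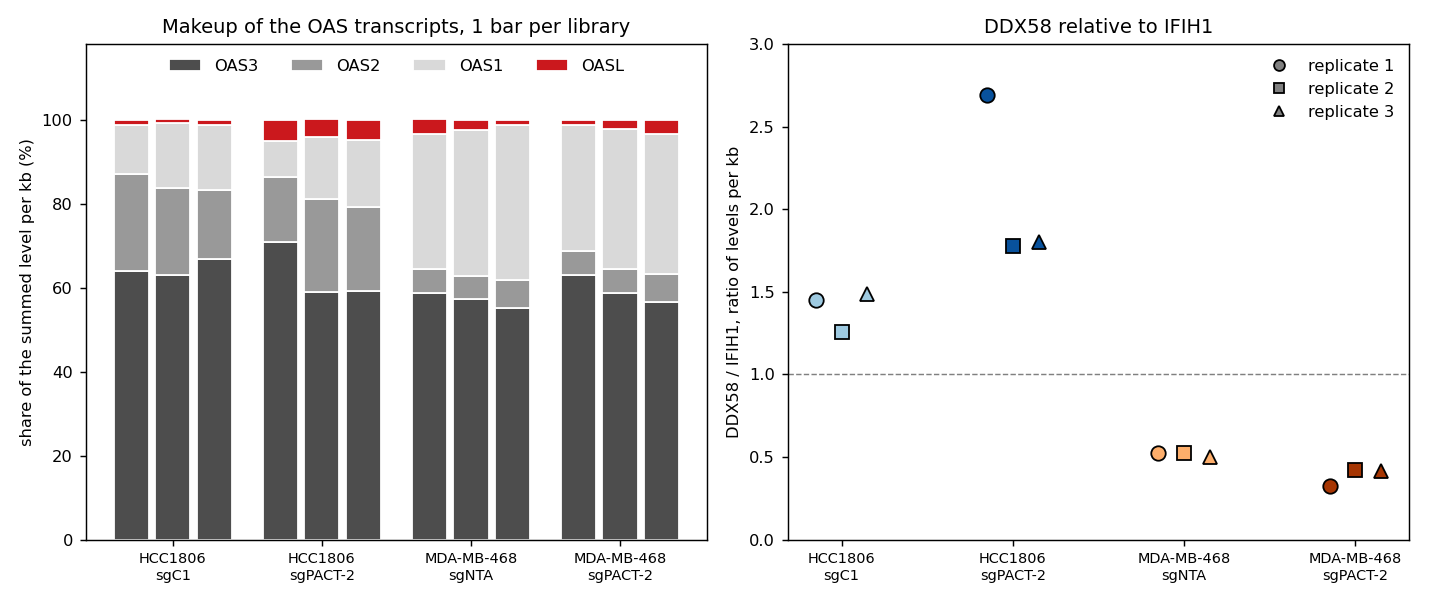
Left, share in percent of each OAS family member in their summed level per kb of all exons, 1 bar per library; right, ratio of the DDX58 level to the IFIH1 level on the same scale in each library, with a dashed line at 1. The OASL share is 4.14% to 5.13% in depleted HCC1806 libraries and 0.883% to 1.29% in their controls, and the ratio is higher after depletion in HCC1806 and lower in MDA-MB-468. The place of the HCC1806 controls against 1 depends on the length used. Neither DDX58 nor IFIH1 was called in MDA-MB-468.

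OAS1 (chr12:112906777-112933222), OAS3 (chr12:112938352-112973249) and OAS2 (chr12:112978395-113011723) lie next to each other on the plus strand, and an antisense gene, AC004551.1, runs across all of them. It shares 92 bases of exon with OAS1 and 0 with the others, and held 51 reads over all 12 libraries and at most 17 in 1, so reads of that gene are few beside the 278 to 870 reads of OAS1 in a HCC1806 library. IFIH1 (chr2:162267079-162318703, minus strand), DHX58 (chr17:42101404-42112733, minus strand), MAVS (chr20:3846799-3876123, plus strand) and TLR3 (chr4:186069152-186088069, plus strand) overlap no annotated gene.

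The rest of the pathway was read from 7 lists chosen for their role. Among 10 tested sensors and binding proteins of double-stranded RNA outside the set, 1 was called in HCC1806, PRKRA itself. EIF2AK2, the kinase PKR, was 224 ± 25.6 CPM in the HCC1806 controls and 170 ± 15.2 after depletion, and was not called (log2 fold change -0.39, SE 0.107, edgeR adjusted p = 0.0664). With the replicate number as a block EIF2AK2 was called lower (log2 fold change -0.388, edgeR adjusted p = 0.0194), as it was with DESeq2 (adjusted p = 0.0114) and with no filter in edgeR (0.0283). Among 25 genes that act downstream of the receptors, 3 rose in HCC1806 and 0 fell. These were the kinase IKBKE (log2 fold change 0.64, edgeR adjusted p = 0.00645), the ubiquitin ligase TRAF3 (0.65, 0.0174) and the transcription factor IRF7 (0.54, 0.0301). The median of the list was 0.167, beside 0.00777 over all genes tested, of which 2.49% were called, and 22 of the 25 had a positive value. The count of 3 depended on the setting: it was 8 by library size only, 5 with DESeq2, with no filter, with a mean of at least 50 counts and with the replicate block, and 0 with the groups compared alone. IKBKE also rose in MDA-MB-468, from 31.0 ± 1.45 to 49.0 ± 4.90 CPM (log2 fold change 0.66, edgeR adjusted p = 0.0164). It was 1 of 25 called there, beside 0.17% of all genes tested. The count was 2 with no filter, with the replicate block and with the groups compared alone.

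Of 15 negative regulators of this signalling, 3 rose and 1 fell in HCC1806, beside 2.49% of all genes tested that were called and 1.16% called higher. The deubiquitinases TNFAIP3 (log2 fold change 1.90, edgeR adjusted p = 9.5e-04) and CYLD (1.05, 3.1e-04) and the phosphatase DUSP1 (0.95, 0.025) rose, and the ubiquitin ligase TRIM59 fell by 0.67 on the log2 scale (adjusted p = 0.00674). TNFAIP3 is also a known NF-kappaB target, and it rose in MDA-MB-468 as well, from 6.41 ± 0.454 to 18.6 ± 1.70 CPM (log2 fold change 1.54, edgeR adjusted p = 0.0275). In the main model it was 1 of 15 called there, beside 0.17% of all genes tested. DUSP1 had a log2 fold change of 0.73 in MDA-MB-468 and was not called (edgeR adjusted p = 0.331), but it was called with the groups compared alone (0.744, adjusted p = 5.1e-04), with no filter (0.728, 0.0181) and without replicate 1 of sgPACT-2 in HCC1806 (adjusted p = 0.0238). In HCC1806 TNFAIP3 spread widely after depletion, from 104 to 260 CPM, beside 34.3 to 57.4 CPM in the controls. With each line fitted alone, PRKRA, CYLD and TNFAIP3 were the only list genes of 12 still called in HCC1806. The calls for IKBKE and TNFAIP3 in MDA-MB-468 held in 7 and 6 of the 12 fits that left out a library.

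The interferon genes themselves were barely detected. Of 16 ligand genes 14 did not pass the filter on low counts, 6 had 0 reads in all 12 libraries, and the highest count in a library among the 14 was 9. IFNB1, the classical product of MAVS signalling, held 19 reads over the 12 libraries together. The 2 that were tested, IFNK and IFNE, were not called in either line; IFNK was 0.534 ± 0.202 CPM in the HCC1806 controls and 0.742 ± 0.0781 after depletion. At this depth a change in the other ligands was not detectable. Of 15 receptors and signal transducers, 1 rose in HCC1806, the kinase TYK2 (log2 fold change 0.39, edgeR adjusted p = 0.0336), beside 1.16% of all genes tested. In MDA-MB-468 0 of the 15 were called, beside 0.17% of all genes tested. SOCS3 had the smallest p of these 15 in MDA-MB-468 (log2 fold change 0.41, edgeR adjusted p = 0.942). With edgeR 0 of the 5 genes of oligoadenylate turnover and related functions were called in either line. Of all genes tested, 2.49% were called in HCC1806 and 0.17% in MDA-MB-468. Of these the smallest p belonged to ABCE1 in HCC1806 (log2 fold change -0.28, edgeR adjusted p = 0.377) and to ENPP1 in MDA-MB-468 (-0.22, adjusted p = 1).

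Of 27 further interferon-stimulated genes, 2 rose and 1 fell in HCC1806, beside 2.49% of all genes tested that were called and 1.16% called higher. In MDA-MB-468 0 were called, beside 0.17% of all genes tested. RSAD2, encoding the antiviral protein viperin, rose from 4 to 9 reads per control library to 17 to 46 (log2 fold change 2.03, edgeR adjusted p = 0.0115). The chemokine CXCL10 rose from 0 to 5 reads per library to 12 to 54 (log2 fold change 3.63, edgeR adjusted p = 0.016). This value rests on few reads: replicate 1 held 5 of the 6 control reads of CXCL10, and the log2 fold change was 5.41 without it and 3.04 without replicate 3 of sgPACT-2, where the call was lost. LGALS3BP fell from 834 ± 16 to 639 ± 31.5 CPM (log2 fold change -0.38, edgeR adjusted p = 0.0212). The median of the 27 was 0.0961 in HCC1806, beside 0.00777 over all genes. IFIT1, a strongly interferon-responsive gene, had values of -0.38 in HCC1806 and -0.50 in MDA-MB-468 and was not called. The calls for IRF7 and TYK2 held in 5 of the 12 fits that left out a library, CXCL10 in 9, DUSP1 in 10, and RSAD2 and TRAF3 in 11.

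The genes most like the 2 called members were found by Pearson's r of log2 CPM over the 12 libraries with the mean of each line removed. The libraries share their depletion groups and their depth, so r describes these samples and carries no p. Among 12992 candidates with at least 50 counts on average in each line, those most like DDX58 were MFSD2A (r = 0.925), NTNG1 (0.912) and TRIM36 (0.906). OASL was no candidate, with 10 to 30 reads per MDA-MB-468 library. Its r with DDX58 was 0.915, above those of NTNG1 and TRIM36. Among 12993 candidates for OASL, the genes most like it were NTNG1 (0.933), DDX58 itself (0.915) and ZBTB43 (0.901). MFSD2A, NTNG1 and TRIM36 were called higher in HCC1806, with log2 fold changes of 0.66, 1.27 and 1.38, and ZBTB43 was not (0.40, edgeR adjusted p = 0.0575), although it was with the replicate number as a block (edgeR adjusted p = 0.0319). By rank correlation MFSD2A and NTNG1 kept first place for DDX58 and OASL, while NTNG1 and TRIM36 took ranks 21.5 and 26 for DDX58, and DDX58 and ZBTB43 shared rank 14 for OASL.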

How the data were processed

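RNA of 12 libraries was sequenced after rRNA depletion and DNase treatment, per the labels' protocols. The table deposited by the authors holds unnormalized whole-number counts for each Ensembl gene and library. Per the submitters' processing notes, reads were handled with Trimmomatic 0.36, STAR 2.5.2b and featureCounts of Subread 1.5.2 on GRCh38; the strand setting and annotation release are not given in the sources used here. Gene coordinates and exon lengths came from GENCODE 29, which holds 56898 of the 57500 gene IDs. Counts were scaled by TMM and tested with edgeR 4.0.16 in R 4.3.3 (filterByExpr, quasi-likelihood, two-sided). One model of all 12 libraries had 1 coefficient per group, with Benjamini-Hochberg adjustment over 27029 genes and a threshold of 0.05. Levels per kb used the union of exons. Alternatives were RLE size factors, library size only, DESeq2 1.42.0, no filter, a mean of at least 50 counts, the groups compared alone, the replicate number as a block, and each library left out in turn. Replicate numbers came from the sample titles. In HCC1806 the deviations of same-numbered libraries from their group means correlated at 0.479, 0.294 and 0.152. Control replicate 2 correlated at 0.351 with depleted replicate 3, and the other unlike-numbered pairs at -0.462 to -0.0764. In MDA-MB-468 same-numbered libraries correlated at 0.116, 0.075 and 0.106. The numbers were used as pairs in the replicate-block alternative only. The main model, which gave the values in the text unless stated otherwise, held no term for pairing. Steps were tested on simulated data. The first such test did not reach its own bar for the share of differing genes recovered. That bar was then replaced by other criteria. A gene that was not called may still differ. From each list, the text names the genes past the threshold, up to 4 per line by adjusted p, or, where none passes, the gene with the smallest p, and the 3 genes with the highest r for each called member. Members, lists and rules were chosen with earlier results of these data known. Figures were drawn with matplotlib 3.10.9.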

Additional observations from a re-analysis of the deposited data

Results flagged for a closer look

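The depletion effects of the 2 lines differed by the interaction test for 2 of the genes described. For DDX58 the difference, MDA-MB-468 minus HCC1806, was -0.97 on the log2 scale (edgeR adjusted p = 0.0489), with a called rise in HCC1806 and no call in MDA-MB-468. For PRKRA it was 0.87 (edgeR adjusted p = 0.0198), with the larger drop in HCC1806. The PRKRA call held in 5 of the 12 fits that left out a library and the DDX58 call in 1. Whether the smaller drop in PRKRA RNA in MDA-MB-468 bears on the DDX58 difference was not tested. Groups of 3 libraries are too small for a check of single outlying samples.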

How the results depend on the processing

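The members called were the same 2 in HCC1806 and 0 in MDA-MB-468 under all 19 alternatives. For the interaction the count of members called was 0 with RLE size factors, 2 with DESeq2, 2 with no filter and 0 to 1 over the fits that left out a library. Genes called in HCC1806 were 1245 with DESeq2, 1351 with no filter, 74 with the groups compared alone and 301 to 1792 over the fits that left out a library, beside 672. In MDA-MB-468 they were 113, 143, 323 and 19 to 98, beside 46. For the interaction they were 178 with DESeq2, 275 with no filter and 9 to 168 over the fits that left out a library, beside 33; between the controls 13022 were called under the minimum mean of 50 counts, where fewer genes were tested. With the replicate number as a block 1947 genes were called in HCC1806, 102 in MDA-MB-468 and 271 for the interaction; the OASL call between the control groups was lost, and no other call of a member changed; EIF2AK2 (adjusted p = 0.0194) and ZBTB43 (0.0319) gained a call in HCC1806. List genes called in HCC1806 were 3 with the groups compared alone and 7 to 16 over the fits that left out a library, and in MDA-MB-468 4 with no filter, 4 with the groups compared alone and 0 to 3. The cause of these shifts was not tested. The main model gave both lines 1 shared estimate of the spread between replicates. As a common coefficient of biological variation in edgeR, that spread was 0.171 over all 12 libraries. With HCC1806 fitted alone it was 0.204, and with MDA-MB-468 fitted alone 0.0936, so the main p-values do not rest on the spread of each line by itself.

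Values near 0 that were not called changed sign. In HCC1806 scaling by library size only gave 0.00435 for MAVS, 0.0593 for OAS1, 0.129 for OAS2 and 0.114 for OAS3. OAS2 and OAS3 were 0.0299 and 0.0213 with a mean of at least 50 counts and 0.0143 and 0.00808 with the groups compared alone. In MDA-MB-468 OAS2 was 0.0378 by library size only and 0.00692 alone. EIF2AK2 there was 0.000196 with RLE, 0.0452 by library size only, 0.000167 with DESeq2, 0.00367 with a mean of at least 50 counts and 0.012 alone. By library size only, NTNG1 was 0.00272 and TRIM36 0.0326 there. The interaction of OAS2 was 0.00656 with RLE, 0.00669 with DESeq2 and 0.0106 with the replicate block, and that of OAS3 was -0.017 by library size only.

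Over the fits that left out a library, values in HCC1806 ran from -0.522 to 0.00242 for TLR3, -0.329 to 0.173 for OAS1, -0.105 to 0.154 for OAS2 and -0.0729 to 0.0659 for OAS3. In MDA-MB-468 they ran from -0.0862 to 0.073 for OAS2, -0.111 to 0.173 for OAS3, -0.562 to 0.258 for OASL, -0.07 to 0.0473 for EIF2AK2, -0.343 to 0.0117 for ENPP1, -0.0387 to 0.12 for RSAD2, -0.122 to 0.0308 for NTNG1 and -0.0689 to 0.0512 for TRIM36. Interactions ran from -0.14 to 0.135 for IFIH1, -0.0471 to 0.0674 for MAVS, -0.284 to 0.218 for OAS1, -0.151 to 0.107 for OAS2, -0.103 to 0.181 for OAS3 and -0.376 to 0.103 for DUSP1. Depth limits OASL in MDA-MB-468, at 10 to 30 reads per library.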
